A study of Sus scrofa with 24 samples.

Results

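IL-4, IL-10 and IFNγ are 3 of the 26 target genes whose mRNA was measured by quantitative RT-PCR in the intestinal mucosa of pigs, and they were taken by name from the deposited tables. They were grouped as assays of T-cell and regulatory cytokines, but the table describes the one named IL-4 as the interleukin 4 receptor, and RefSeq (assembly Sscrofa11.1) lists its transcript NM_214340.1 under IL4R. It is called the IL-4 assay here, since the identifier and the description point to the receptor but the product that its primers amplify was not checked. NM_214041.1 is listed under IL10 and NM_213948.1 under IFNG. The study compared pigs with post-natal growth retardation (PGR pigs) with healthy pigs (Control), to learn how the gut of slow-growing animals differs. All animals were Duroc × Landrace × Large Yorkshire crosses of the same paternal origin, weaned and given the same commercial feed, and were sampled at 42 d of age. The PGR pigs had a body weight far below the average without obvious disease or injury, and Control pigs came from matched litters. The 4 groups were jejunal mucosa of 6 Control and 6 PGR pigs and ileal mucosa of the same 12 pigs, 24 samples in all.

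The tissue field of 12 samples names another tissue than the sample's title, and samples were assigned by title. CCK and ghrelin (GHRL) are hormones of endocrine cells that are denser in the upper gut. The log2 level of CCK was 3.00 higher in the jejunal mucosa on average over the 8 pigs with both values (two-sided exact sign-flip permutation p = 0.00781), and that of GHRL 6.02 higher over 7 pigs (exact sign-flip permutation p = 0.0156), a gene taken up here after its value was seen. The panel holds no gene that marks T cells alone. Mucosal scrapings mix epithelium, immune cells and stroma, so fewer cells of a type and less RNA per cell cannot be told apart.

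IFNγ is the signature cytokine of type 1 helper T cells, cytotoxic T cells and natural killer cells, and it activates macrophages and raises antigen presentation. IL-10 restrains such responses, and mice without it develop inflammation of the gut. If the IL-4 assay reads the interleukin 4 receptor, its gene encodes the alpha chain, which carries the signals of IL-4 and IL-13, the cytokines of type 2 immunity, and is made by many cells, epithelium included.

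Ct is the PCR cycle at which a product is detected, and 1 cycle less stands for about 2 times the template. The level of a gene is its ratio to β-actin (2^−ΔCt), given here relative to the Control mean of the tissue, which is set to 1. Of the members' 72 levels, 7 were blank in the deposited table, while the Ct was kept in all samples. The β-actin Ct behind each level was recovered from Ct and level, which also allows the blank levels to be recomputed. Levels of different genes were not ranked against each other, since each assay has its own efficiency. Tests were two-sided and exact over the pigs, with Benjamini-Hochberg adjustment over the whole table, and a call means an adjusted p under 0.05.

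IL-10, the regulatory cytokine, had 5 jejunal levels in each growth group. In Control pigs they were 0.831 in pig 1, 1.08 in pig 3, 1.06 in pig 4, 0.770 in pig 5 and 1.25 in pig 6. In PGR pigs they were 0.885 in pig 1, 0.801 in pig 2, 0.746 in pig 4, 0.709 in pig 5 and 0.552 in pig 6. The groups overlapped, with 3 of the 5 PGR pigs below every Control pig. The PGR mean was 0.739 ± 0.123 (SD, n = 5) against a Control SD of 0.197 (n = 5), with exact permutation p = 0.0476 and adjusted p = 0.0917. The blank levels recomputed to 2.40 in Control pig 2 and 1.18 in PGR pig 3, and with them the PGR level was 0.659 of the Control mean with exact permutation p = 0.0887.

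In the ileal mucosa all 12 IL-10 levels were deposited. Control pigs ranged from 0.843 to 1.22 with a median of 0.984, and PGR pigs from 0.520 to 0.957 with a median of 0.844. PGR pigs 5 and 6 were lowest, and 3 of the 6 PGR pigs lay below every Control pig. The PGR mean was 0.759 ± 0.186 (SD, n = 6) against a Control SD of 0.132 (n = 6), with exact permutation p = 0.0216 and adjusted p = 0.0728. A lower level in PGR pigs at an unadjusted p under 0.05 was found for 50 percent of the 26 genes in each tissue, and of the members IL-10 was the 1 of 3 in both. These counts depended on the settings. In either direction, an unadjusted p under 0.05 was found for 5 genes in jejunal and 8 in ileal mucosa with the blanks recomputed. Without a reference gene the counts were 6 and 7, and with pigs of the same number paired 1 and 2. Blanks limited the paired counts, since fewer than 6 complete pairs cannot give an exact sign-flip p under 0.05. For jejunal IL-10 the unadjusted p was above 0.05 when any 1 of 7 of the 10 pigs was left out (exact permutation p up to 0.0952), by rank sums (exact p = 0.0556) and by limma (p = 0.0606). For ileal IL-10 it was above 0.05 without Control pig 3 (exact permutation p = 0.0584). The adjusted p of the exact test was under 0.05 for 0 percent of the genes in both tissues, with 13 jejunal and 14 ileal genes at an unadjusted p under 0.05. By limma 3 of the 52 comparisons passed after adjustment, and no member was among them, with adjusted p of 0.109 for jejunal and 0.0809 for ileal IL-10.

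The Ct of IL-10 itself moved little between the growth groups. In the ileal mucosa it ran from 23.75 to 24.06 with a median of 23.93 in Control pigs and from 23.53 to 24.06 with a median of 23.84 in PGR pigs. The ranges overlapped nearly throughout. PGR minus Control was −0.11 cycles for IL-10 (exact permutation p = 0.277) and −0.53 cycles for β-actin in the same samples (exact permutation p = 0.00216, the smallest 6 against 6 can give). So the direction changed with the reference: the ileal IL-10 level of PGR pigs was 1.08 times that of Control pigs without a reference gene and 1.015 times with the target genes' mean Ct as the reference. In the jejunal mucosa, over the 10 pigs with a deposited level, IL-10 Ct was 0.20 cycles higher in PGR pigs (exact permutation p = 0.317), and the change of β-actin Ct was −0.24 cycles. Over all 12 pigs these were 0.05 cycles for IL-10 (exact permutation p = 0.866) and −0.48 cycles for β-actin (exact permutation p = 0.0866). The reference moved the whole table: the median PGR minus Control log2 level over all genes was −0.59 in jejunal and −0.43 in ileal mucosa with β-actin, and −0.04 and 0.06 without a reference gene. Relative to this median, jejunal IL-10 was at 0.15 with β-actin, −0.16 with no reference gene and −0.13 with the mean Ct, and ileal IL-10 at −0.00, 0.05 and −0.02. With the same references the IL-4 assay was at 0.19, 0.02 and 0.05 in jejunal and 0.20, 0.26 and 0.32 in ileal mucosa. IFNγ was at 0.67, 0.60 and 0.54 in jejunal and 0.04, −0.13 and 0.02 in ileal mucosa. Jejunal and ileal IL-10 and ileal IFNγ thus changed side of the median with the reference.

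IL-10 was lower in the jejunal than in the ileal mucosa. Within the pig, the jejunal minus ileal log2 level was −0.90 in Control pig 1, −0.80 in pig 3, −0.62 in pig 4, −0.75 in pig 5 and −0.24 in pig 6. It was −0.74 in PGR pig 1, −0.68 in pig 2, −0.83 in pig 4, −0.20 in pig 5 and −0.54 in pig 6. All 10 pigs with both levels lay on the same side, and Control and PGR pigs overlapped. The mean was −0.63 ± 0.24 (SD, n = 10), with exact sign-flip permutation p = 0.00195, the smallest that 10 pigs can give, and adjusted p = 0.00888. Recomputing the blank levels added Control pig 2 at 0.78 and PGR pig 3 at −0.16, and the mean over 12 pigs was −0.47, with adjusted p = 0.0148 by the exact test. Over all alternatives, leaving out each pig included, the adjusted p of this result ran from 0.000105 to 0.0178.

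With β-actin, 80 percent of the 25 genes passed the adjusted threshold in this contrast, 16 percent with a lower jejunal level. Those 4 genes were IL-10, IL-1β, IL-6 and Akt, the last named after its value was seen. The median log2 difference over the 25 genes was 0.74 toward the jejunal mucosa, so IL-10 lay 1.37 below it, and 1.53 below the median that the target genes' mean Ct gave as the reference. That median was 0.35 without a reference gene and −0.40 with the mean Ct, so the share called lower is that of β-actin. With the mean Ct the IL-4 assay, at −1.27, and IFNγ, at −1.17, were called lower too. The Ct of IL-10 was higher in the jejunal mucosa in 12 of 12 pigs, from 0.09 cycles in PGR pig 3 to 1.38 in Control pig 6 and PGR pig 1. The median was 1.06 and the mean 0.95 ± 0.41 cycles (SD, n = 12), so the direction did not rest on β-actin. Within the growth groups the log2 level differed by −0.66 ± 0.26 (SD, n = 5) in Control pigs and −0.60 ± 0.24 (SD, n = 5) in PGR pigs, each with exact p = 0.0625, the smallest 5 pigs allow.

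**Figure D1:**
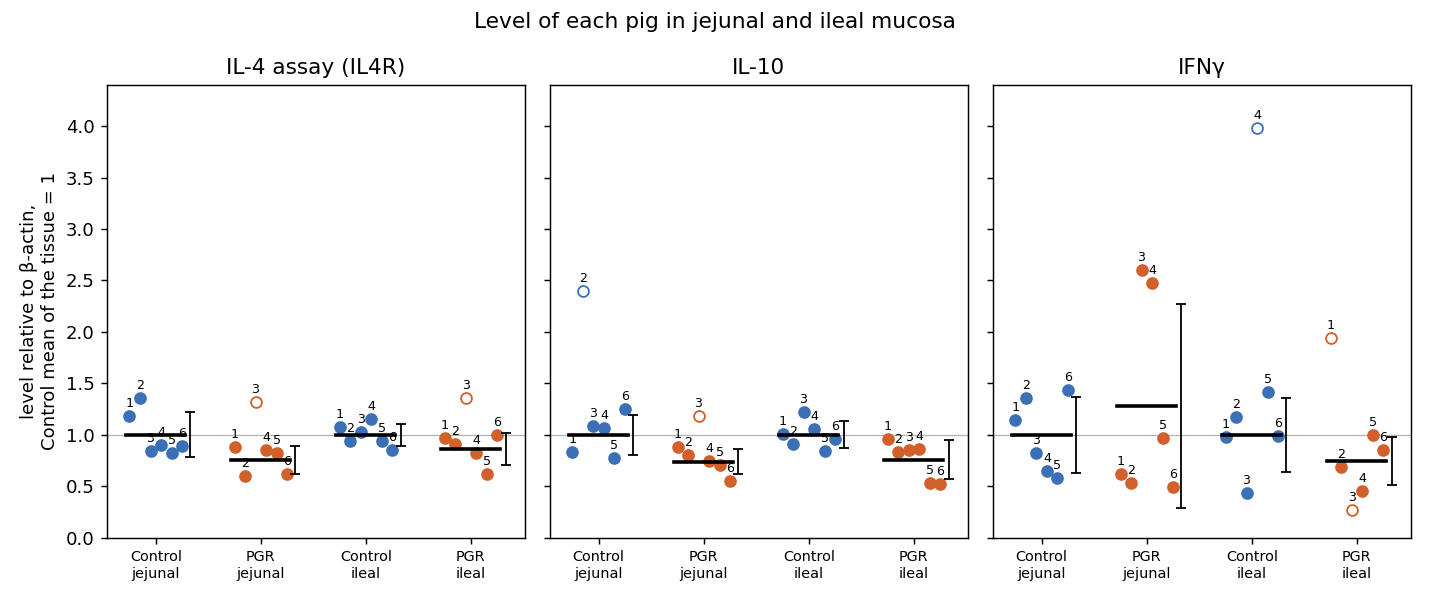
Level of the IL-4 assay, IL-10 and IFNγ relative to β-actin in each pig, with the Control mean of the tissue set to 1; numbers are pig numbers, filled points are deposited levels, open points are blank levels recomputed from Ct, lines are means and bars SD of the deposited levels. The open points lie outside the filled points of their group, and jejunal IFNγ of PGR pigs 3 and 4 stands at 2.60 and 2.48.

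IFNγ, the effector cytokine, had the widest SD of deposited levels among the members in each of the 4 groups. Jejunal levels of Control pigs ran from 0.582 to 1.44 with a median of 0.984. Those of PGR pigs ran from 0.491 to 2.60 with a median of 0.795. PGR pigs 3 and 4, at 2.60 and 2.48, lay above every Control pig, pigs 2 and 6, at 0.531 and 0.491, below every Control pig, and the rest among them. The PGR mean was 1.28 ± 0.990 (SD, n = 6) against a Control SD of 0.366 (n = 6), and the difference was within the spread (exact permutation p = 0.498, adjusted p = 0.551). The PGR over Control ratio was 2.16 with no reference gene, 2.01 with the mean Ct and 1.06 on the log2 scale, and without PGR pig 3 it was 1.02. None of these passed either, with adjusted p of at least 0.421 over the alternatives.

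The Ct, from which these levels are computed and which needs no reference gene, set PGR pigs 3 and 4 apart by itself. Jejunal IFNγ Ct was 23.19 ± 0.33 (SD, n = 6) in Control pigs and 22.64 ± 1.40 (SD, n = 6) in PGR pigs, with 20.67 in pig 3, 21.15 in pig 4 and at least 22.79 in the others. The SD of 1.40 was the 4th widest of the 26 genes in jejunal PGR samples, against a median SD of 0.52, and that of 0.33 the 16th of 26 in jejunal Control samples, against a median of 0.36. In jejunal Control samples IFNγ thus had the narrowest Ct spread of the members, next to 0.35 for IL-10 and 0.38 for the IL-4 assay, and in the other groups the widest. Whether the spreads differ was not tested.

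In the ileal mucosa 5 Control and 4 PGR levels of IFNγ were deposited. Control levels were 0.977 in pig 1, 1.17 in pig 2, 0.439 in pig 3, 1.42 in pig 5 and 0.991 in pig 6. PGR levels were 0.683 in pig 2, 0.451 in pig 4, 0.998 in pig 5 and 0.849 in pig 6. Every PGR value lay inside the Control range. The PGR mean was 0.745 ± 0.235 (SD, n = 4) against a Control SD of 0.361 (n = 5), with exact permutation p = 0.262 and adjusted p = 0.340. With the mean Ct as the reference the direction turned, to a PGR over Control ratio of 1.03, and to 1.12 with the blanks recomputed as well.

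The blank ileal levels of IFNγ recomputed to 3.98 in Control pig 4, 1.94 in PGR pig 1 and 0.274 in PGR pig 3, so they reached further than any deposited one. The value of Control pig 4 goes with a β-actin Ct of 15.63 in the set of readings used for IFNγ, while the set used for IL-10 gave 13.54 in the same sample. The IFNγ Ct of that sample, 22.57, was close to the Control median of 22.51. With the blank levels recomputed, the PGR level was 0.579 of the Control mean (exact permutation p = 0.344).

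PGR pigs 3 and 4, highest in the jejunal mucosa, were the lowest PGR pigs in the ileal mucosa. Their jejunal minus ileal Ct of IFNγ was −3.20 and −2.20 cycles. That of the other PGR pigs was 2.69 in pig 1, 1.08 in pig 2, 0.68 in pig 5 and 1.12 in pig 6, and Control pigs ranged from −0.90 to 1.75 with a median of 0.85. The sign thus differed between pigs of the same group, with 9 of 12 pigs above 0 and a mean of 0.32 ± 1.66 cycles (SD, n = 12). On the level scale the jejunal minus ileal log2 difference was −0.11 ± 1.08 (SD, n = 9), within the spread (exact sign-flip permutation p = 0.793, adjusted p = 0.826). Taken against the target genes' mean Ct it was −1.17, and with the β-actin readings of the set of Nrf2 it was 0.19. The adjusted p ran from 0.0230 to 0.977 over the alternatives. With β-actin IFNγ lay 0.85 below the median of the 25 genes, and with the mean Ct 0.77 below it.

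The IL-4 assay, listed under the receptor, had 6 Control and 5 PGR levels in each tissue. In the jejunal mucosa Control pigs ranged from 0.821 to 1.36 with a median of 0.897. PGR pigs were at 0.886 in pig 1, 0.596 in pig 2, 0.852 in pig 4, 0.825 in pig 5 and 0.621 in pig 6. Only pigs 2 and 6 lay below every Control pig. The PGR mean of 0.756 ± 0.137 (SD, n = 5) was below the lowest Control pig, but the difference did not pass (exact permutation p = 0.0736, adjusted p = 0.120). It had an unadjusted exact permutation p of 0.0476 without Control pig 3 and 0.0317 without Control pig 5. The adjusted p was then 0.0917 and 0.0718. The direction turned with the mean Ct as the reference, to a PGR over Control ratio of 1.06, and to 1.21 with the blanks recomputed as well.

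In the ileal mucosa Control levels of the IL-4 assay ran from 0.853 to 1.16 with a median of 0.988. PGR levels were 0.971 in pig 1, 0.910 in pig 2, 0.821 in pig 4, 0.620 in pig 5 and 0.996 in pig 6. The groups overlapped apart from pigs 4 and 5, and the PGR mean was 0.864 ± 0.152 (SD, n = 5) with exact permutation p = 0.110 and adjusted p = 0.159. The level of PGR pig 3 was blank in both tissues and recomputed to 1.32 in jejunal and 1.36 in ileal mucosa, above all other PGR pigs.

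Without β-actin the ileal IL-4 assay turned toward PGR pigs. Its Ct ran from 20.65 to 21 with a median of 20.87 in Control pigs and from 19.93 to 20.82 with a median of 20.56 in PGR pigs. The ranges overlapped in a narrow band, and the mean was 20.85 ± 0.11 (SD, n = 6) against 20.43 ± 0.40 (SD, n = 6), with unadjusted exact permutation p = 0.0173. For the pigs with a deposited level, PGR pigs had 1.28 times the Control level without a reference gene and 1.30 times with the target genes' mean Ct as the reference. Neither passed after adjustment, with adjusted p of 0.127 and 0.155 by the exact test. In ileal Control samples the Ct of the IL-4 assay and IL-10 had the narrowest spreads of the 25 genes, with SD of 0.11 and 0.12 cycles.

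The jejunal minus ileal log2 level of the IL-4 assay ranged from −0.47 in PGR pig 6 to 0.74 in Control pig 2, and 7 of 11 pigs lay above 0. The mean of 0.11 ± 0.39 (SD, n = 11) was within the spread (exact sign-flip permutation p = 0.361, adjusted p = 0.393). Its direction depended on the reference: without one it was −0.42, and with the target genes' mean Ct −1.27. The adjusted p ran from 0.00111 to 0.722 over the alternatives. Under each of these references the IL-4 assay lay below the median of the 25 genes, by −0.63 with β-actin, −0.77 with none and −0.87 with the mean Ct.

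**Figure D2:**
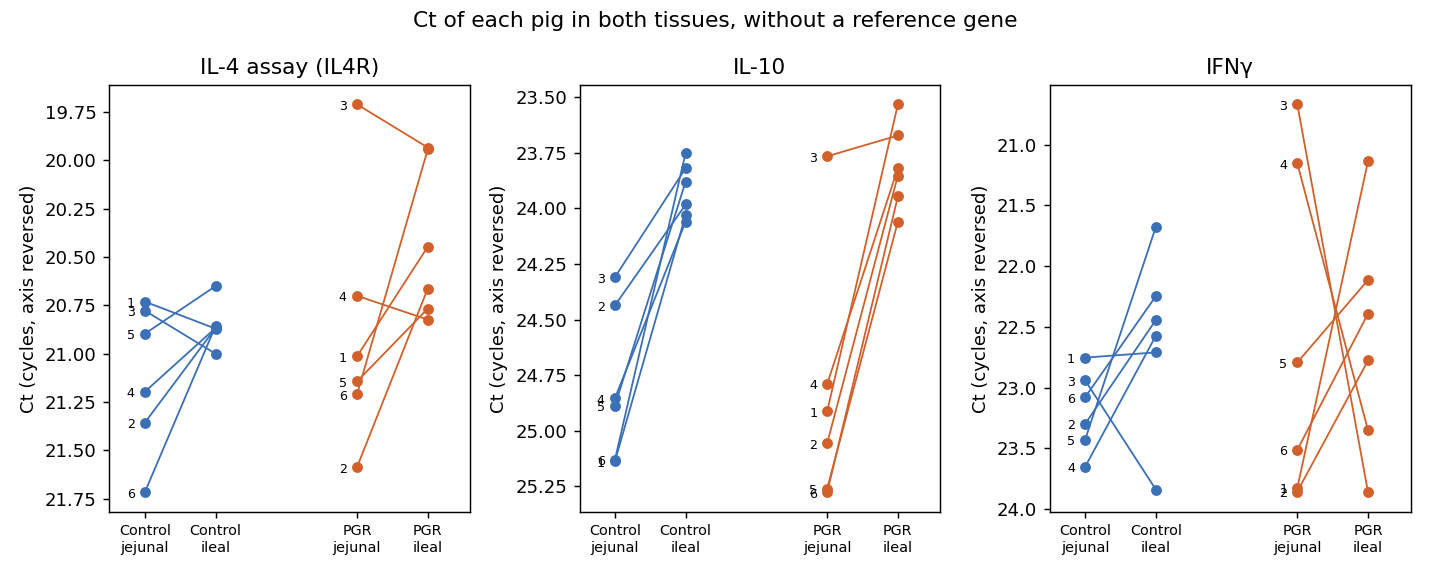
Ct in cycles of the IL-4 assay, IL-10 and IFNγ in the jejunal and ileal mucosa of each pig, with the axis reversed so that more mRNA is up; lines join the samples of 1 pig and numbers are pig numbers. IL-10 had the higher Ct in the jejunal mucosa in 12 of 12 pigs, while the IFNγ lines of PGR pigs 3 and 4 run against those of the other PGR pigs.

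The PGR change of the members was not separated between the tissues. PGR minus Control of the within-pig jejunal minus ileal log2 level was 0.06 for IL-10, 0.20 for IFNγ and −0.17 for the IL-4 assay, with exact permutation p of 0.651, 0.873 and 0.487. The sign for IL-10 turned to −0.26 with no reference gene, −0.18 with the mean Ct, −0.10 with the blanks recomputed and −0.03 without PGR pig 5. That for IFNγ turned to −0.15 without Control pig 5 and −0.52 without PGR pig 4. Over the 25 genes 0 percent passed the adjusted threshold of the exact test, and 2 had an unadjusted p under 0.05.

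The balance of IFNγ to IL-10 was taken in each pig as the Ct of IL-10 minus the Ct of IFNγ, which uses no reference gene and has a value in every sample. A higher value means more IFNγ for the same IL-10, and its zero point depends on the primers. In the jejunal mucosa it ran from 1.14 to 2.38 with a median of 1.41 in Control pigs. In PGR pigs it ran from 1.09 to 3.64 with a median of 2.12. PGR pigs 3, 4 and 5 lay above every Control pig, at 3.10, 3.64 and 2.47, and pig 1 below every Control pig. The means of 1.60 ± 0.50 (SD, n = 6) and 2.21 ± 1.04 (SD, n = 6) differed by 0.61, which was within the spread (exact permutation p = 0.221, adjusted p = 0.588 over 325 gene pairs, of which 4.62 percent passed). Leaving out 1 pig moved the difference between 0.32, without PGR pig 4, and 0.83, without PGR pig 1. The gene pairs that passed all had an exact permutation p of 0.00216, the smallest 6 against 6 can give. Over so many pairs this p passes only where many pairs share it. That also limits the growth-group shares of gene pairs given below.

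In the ileal mucosa the balance ran from −0.02 to 2.20 with a median of 1.50 in Control pigs and from −0.19 to 2.40 with a median of 1.32 in PGR pigs. Both groups covered nearly the same range, and the lowest pig of each was pig 3. The means were 1.34 ± 0.73 (SD, n = 6) and 1.21 ± 0.96 (SD, n = 6), and the difference of −0.13 had an exact permutation p of 0.812 and an adjusted p of 0.918. Its sign turned when 1 pig was left out, to 0.15 without PGR pig 3, 0.02 without PGR pig 4 and 0.04 without Control pig 5, and it was lowest without Control pig 3, at −0.40. Of the 300 ileal gene pairs 0 percent passed the adjusted threshold of the exact test, and 62 had an unadjusted p under 0.05.

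Between the tissues, the balance was higher in the jejunal mucosa in 8 of 12 pigs. The jejunal minus ileal difference was 1.06, −0.40, 1.39, −0.29, −0.75 and 0.55 in Control pigs 1 to 6, and −1.31, 0.12, 3.29, 3.17, 0.52 and 0.21 in PGR pigs 1 to 6. Pigs 3 and 4 made most of the PGR mean of 1.00, and the Control mean was 0.26. The mean over 12 pigs was 0.63, from 1.27 ± 0.82 in the ileal to 1.90 ± 0.84 in the jejunal mucosa (SD, n = 12), and was within the spread (sign-flip permutation p = 0.170, adjusted p = 0.204). It was 0.39 without PGR pig 3, 0.40 without PGR pig 4 and 0.81 without PGR pig 1. In this contrast 73 percent of 300 gene pairs passed. PGR and Control pigs differed by 0.74 in the jejunal minus ileal balance (exact permutation p = 0.398, adjusted p = 0.723), and of the 300 pairs 0 percent passed by the exact test, with 27 at an unadjusted p under 0.05. Leaving out 1 pig moved this 0.74 between 0.28, without PGR pig 3, and 1.20, without PGR pig 1.

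**Figure D3:**
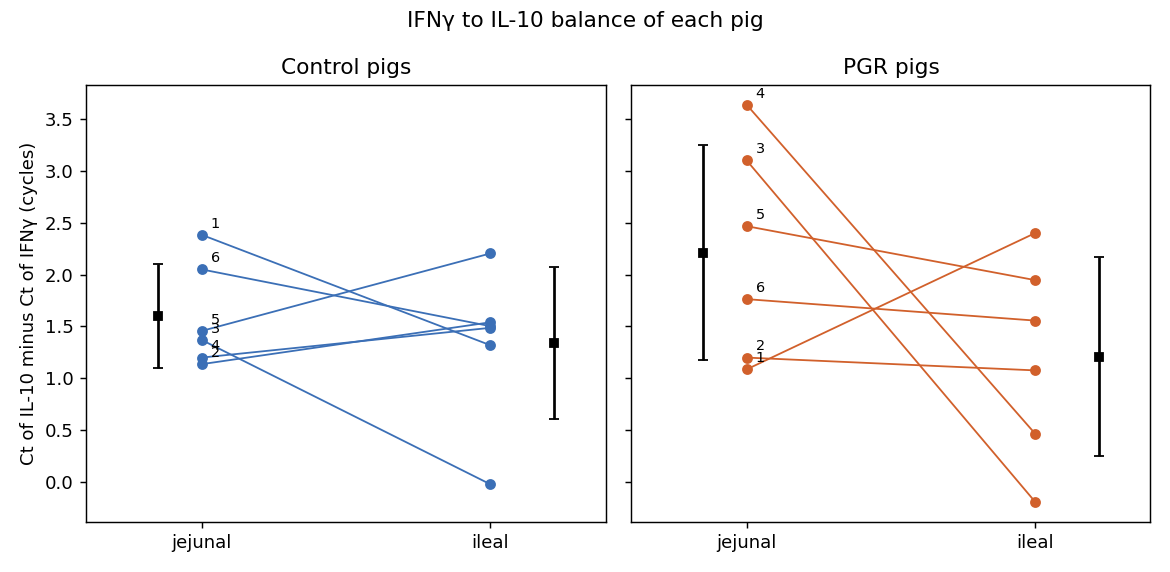
IFNγ to IL-10 balance (Ct of IL-10 minus Ct of IFNγ, in cycles) of each Control and PGR pig in both tissues; lines join the samples of 1 pig, numbers are pig numbers, and squares with bars are means and SD of 6 pigs. PGR pigs 3 and 4 go from 3.10 and 3.64 in the jejunal to −0.19 and 0.47 in the ileal mucosa.

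The balance differs when taken from the levels, because IFNγ and IL-10 were normalized with separate sets of β-actin readings. The set of IFNγ read higher than that of IL-10 by −0.04 to 0.37 cycles in jejunal samples. In ileal samples it read higher by 0.20 to 0.81 cycles, and by 2.09 in Control pig 4. With each gene against its own readings, the jejunal minus ileal balance was 0.23 in place of 0.63, and that of Control pig 4 was −2.31 in place of −0.29. PGR minus Control of the gap was 0.01 cycles in jejunal and −0.17 in ileal samples. Own readings thus add −0.17 to the ileal balance difference of −0.13, in the same direction over all pigs. That −0.17 rested on Control pig 4, and its sign turns without that pig. The other ileal Control gaps ran from 0.20 to 0.49 cycles, and the PGR gaps from 0.22 to 0.81 with a mean of 0.42. Whether the target readings of these genes carry the same gap as their β-actin readings was not tested, so the Ct difference may hold it too. This alternative was chosen after the values were seen.

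The other pairs among the members were added after the values were seen as well. The IL-4 assay against IL-10, as a Ct difference, was 3.23 ± 0.34 in the ileal and 3.82 ± 0.38 in the jejunal mucosa (SD, n = 12), higher in the jejunal mucosa in 11 of 12 pigs. The mean difference of 0.59 passed the threshold (sign-flip permutation p = 0.000977, adjusted p = 0.00217), as did 73 percent of all gene pairs. The pig below 0 was Control pig 2, at −0.04, whose jejunal IL-10 level is one of the blank ones. IFNγ against the IL-4 assay differed by 0.04 between the tissues (sign-flip permutation p = 0.916), and by −0.36 with each gene against its own β-actin readings (sign-flip permutation p = 0.439). Between the growth groups neither pair was separated from the spread in either tissue, with exact permutation p from 0.115 to 0.424.

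The 7 blank levels of the members all lay outside the deposited levels of their own group once recomputed, 6 above and 1 below. Over the whole table the same was true of 71 of 74 recomputed levels, 47 above and 24 below. The rule for leaving levels blank is not known, and these counts were taken after the values were seen. PGR pig 3 held 4 of the members' blanks, and in its jejunal sample the Ct of the IL-4 assay, IL-10 and IFNγ was below the mean of the other PGR pigs, at −1.42, −1.29 and −2.36 cycles, while the median over 26 genes was −0.26. In the ileal sample of this pig IFNγ went the other way, at 1.51 cycles above the other PGR pigs, where the median over 25 genes was −0.59.

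The other 5 immune genes of the panel are IL-1β, IL-6 and IL-8, which promote inflammation, and TLR4 and MyD88, a receptor of bacterial lipopolysaccharide and its adaptor. Ileal TLR4 carries the jejunal Ct in all 12 pigs, so it is no ileal measurement; it is among the 26 ileal genes tested, where it was not called. In the jejunal mucosa 4 of the 5 had a lower PGR level at an unadjusted exact p under 0.05, and in the ileal mucosa 1 of the other 4, next to 50 percent of all 26 genes in each tissue, with median levels of 0.624 and 0.805 of the Control mean. The medians of the members were 0.756 and 0.759, those of all 26 jejunal genes 0.643 and of the 25 ileal genes without TLR4 0.745. In the contrast of the tissues, which leaves TLR4 out, 2 of the other 4 immune genes were called lower and 1 higher in the jejunal mucosa, against IL-10 alone, lower, among the 3 members. Of all 25 genes 80 percent were called in this contrast and 16 percent called lower. These calls were made with β-actin, and with the mean Ct the IL-4 assay and IFNγ were called lower too.

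The likeness of genes was measured over the 12 pigs of a tissue, as the correlation of Ct less the sample's mean Ct of the target genes, each as a deviation from its group mean, with p from permutation within the groups. Genes called most like a member were taken by r, and the order by rho can differ. IL-10 was most like IL-6 in the jejunal mucosa (r = 0.67, p = 0.0258, rho = 0.45, p = 0.0674), followed by the IL-4 assay (r = 0.51, p = 0.106, rho = 0.43, p = 0.178). Without Control pig 1 and PGR pig 3, the farthest from the median, r was 0.53 and 0.45. The relation to the IL-4 assay fell to r of 0.10 without Control pig 6 and PGR pig 3, the farthest for that assay. In the ileal mucosa IL-10 was most like P70S6K (r = 0.78, p = 0.00906, rho = 0.57, p = 0.0705) and IGF-1 (r = 0.75, p = 0.0103, rho = 0.60, p = 0.0494). Both relations rested on Control pig 5 and PGR pig 3, without which r was 0.22 and 0.19.

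Jejunal IFNγ was most like the IL-4 assay (r = 0.66, p = 0.0291, rho = 0.63, p = 0.0338) and IL-6 (r = 0.59, p = 0.114, rho = 0.40, p = 0.214). Without PGR pigs 1 and 3 r was 0.39 and 0.04, so the likeness to IL-6 rested on them. Ileal IFNγ was most like 4EBP1 (r = 0.77, p = 0.0113, rho = 0.64, p = 0.0401) and CCK (r = 0.60, p = 0.131, rho = 0.36, p = 0.304), with r of 0.41 and 0.45 without the same pigs.

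The jejunal IL-4 assay was most like MyD88, the adaptor of TLR4 (r = 0.74, p = 0.00343, rho = 0.79, p = 0.00414), and IL-6 (r = 0.74, p = 0.0158, rho = 0.62, p = 0.0201). These kept r of 0.77 and 0.60 without Control pig 6 and PGR pig 3. The ileal IL-4 assay was most like IL-6 (r = 0.70, p = 0.0238, rho = 0.48, p = 0.124) and NQO1 (r = 0.55, p = 0.0879, rho = 0.24, p = 0.456). Both rested on Control pig 4 and PGR pig 6, without which r was 0.19 and −0.30. By rho the ileal IL-4 assay was most like MyD88 (r = 0.48, p = 0.110, rho = 0.62, p = 0.0418), with r of 0.62 without the same pigs. This relation did not pass either, with adjusted permutation p of 0.429 for r and 0.439 for rho. Over 147 relations the adjusted permutation p of the 12 taken by r was at least 0.129 for r and 0.203 for rho, so none of them passed. The 1 relation that passed was inverse, between the jejunal IL-4 assay and HO-1, named after its value was seen (r = −0.92, p = 0.00019, adjusted p = 0.0279, rho = −0.92, p = 8e-05, adjusted p = 0.0118), with r of −0.83 without Control pig 6 and PGR pig 3.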

How the data were processed

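The authors extracted total RNA from mucosal scrapings, ran SYBR Green RT-PCR in triplicate and deposited the mean Ct per sample, in cycles, a reversed log2 scale without normalization. The deposited levels are a ratio to β-actin (2^−ΔCt) with blanks. A deposited fold table holds the authors' own comparison and was not used. A Ct carries no counting depth. β-actin Ct was recovered as Ct plus the log2 ratio, in sets equal within 0.03 cycles. Growth groups were compared by exact permutation of means (924 assignments for 6 against 6), and tissues by exact sign flips within the pig, since titles give both tissues of a pig 1 number. Over genes, the deviations of both tissues of a pig correlated from −0.576 to 0.430, and in PGR pigs from −0.576 to −0.154. Those of Control and PGR pigs of the same number correlated from −0.471 to 0.533. These ranges do not separate the 2 kinds of pair. Tissues were paired by title alone, and growth groups were not paired because nothing ties the numbers to litters. Likeness used 100000 permutations. Adjustment covered 52 levels, 25 genes or all gene pairs. Named genes were the 3 members, β-actin, 5 other immune genes and the 2 genes most like each member per tissue. CCK was the planned check of tissue, and GHRL, Akt and HO-1 were named after their values were seen.

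The members and lists were chosen with earlier results of these data known. Chosen after the values were seen were the balances other than IFNγ over IL-10, the adjustment over 300 pairs (without TLR4, whose ileal Ct equals the jejunal), the call rules and directions behind the shares of genes called, the descriptions of blanks, spread, β-actin gap, reference shift and PGR pig 3, and the added alternatives. The alternatives planned were another scale, rank sums, limma, the pairing, no reference gene, the mean Ct, another β-actin set, recomputed blanks, adjustment within 1 tissue, a filter on mean Ct above 30 and leaving out each pig. Tests and limma were tried first on simulated data. RefSeq matched 25 of 26 identifiers, for names only. Python 3.11.15, numpy 2.4.6, scipy 1.17.1, matplotlib 3.10.9, R 4.3.3 and limma 3.58.1 were used.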

Additional observations from a re-analysis of the deposited data

Results flagged for a closer look

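In 36 groups of values of the members, their balance and their β-actin readings, 2 samples stood far from the rest of their group by Dixon's criterion, and chance marks about 1 in 20 groups. Jejunal IL-10 Ct of PGR pig 3 was 23.77, against 24.79 to 25.28 in the other PGR pigs, and its level was blank. The ileal β-actin Ct of Control pig 4 in the set used for IFNγ was 15.63, against 13.25 to 13.74 in the other Control pigs, and its IFNγ level was blank.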

How the results depend on the processing

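Of 425 values under alternatives, 243 from leaving out a pig and 133 from other settings kept their direction and side of the threshold, or for counts lay within 1.5 times the reported count. The jejunal minus ileal IL-10 level passed under every alternative run. Directions changed mostly with the reference. With no reference gene the PGR over Control ratio was 1.281 for the ileal IL-4 assay and 1.081 for ileal IL-10, the jejunal minus ileal log2 level of the IL-4 assay was −0.4158, past the threshold, and PGR minus Control of that difference for IL-10 was −0.2613. With the mean Ct of all target genes the ratio was 1.062 for the jejunal IL-4 assay, 1.301 for the ileal one, 1.015 for ileal IL-10 and 1.033 for ileal IFNγ. The jejunal minus ileal level was then −1.269 for the IL-4 assay and −1.17 for IFNγ, both past the threshold, and the IL-10 difference between tissues was −0.1778. The β-actin readings of the set of Nrf2 gave 0.1889 for jejunal minus ileal IFNγ, and recomputed blanks gave −0.1022 for the IL-10 difference. The cause was not tested.

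Alternatives added after seeing the data combined recomputed blanks with another reference. With the mean Ct the ratio was 1.213 for the jejunal and 1.278 for the ileal IL-4 assay, 1.018 for ileal IL-10 and 1.117 for ileal IFNγ, and jejunal minus ileal was −1.192 for the IL-4 assay and −1.15 for IFNγ, both past the threshold. With no reference gene it was −0.3625 for the IL-4 assay, past the threshold too, and the IL-10 difference was −0.1578. The cause was not tested. The balances against each gene's own β-actin readings were added too. Jejunal minus ileal IFNγ over the IL-4 assay changed its direction, from 0.04 to −0.3576, with no cause tested, and the other balances kept theirs. Leaving out each pig for the balances other than IFNγ over IL-10 was added as well.

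Genes with an unadjusted p under 0.05 numbered 13 in jejunal mucosa, and 6 with no reference gene, 7 with the mean Ct, 5 with recomputed blanks and 8 with both. The ileal number was 14, and 9 by rank sums, 7 with no reference gene, 5 with the mean Ct, 8 with recomputed blanks and 6 with both. After adjustment the exact test gave 0 of 52, and limma and the exact test with no reference gene gave 3 each.

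Leaving out each pig gave 8 to 16 jejunal genes, fewest without PGR pig 5, and 8 to 13 ileal genes, fewest without PGR pig 2 (8) and pig 1 (9). Jejunal minus ileal IFNγ ran from −0.3875 to 0.08062, above 0 without Control pig 5 or PGR pig 6. The difference between tissues ran from −0.03467 to 0.1687 for IL-10, below 0 without PGR pig 5, and from −0.516 to 0.5668 for IFNγ, below 0 without Control pig 5 or PGR pig 4. The IFNγ over IL-10 balance kept its direction in the jejunal mucosa (0.3239 to 0.8339), between tissues (0.3882 to 0.8067) and in the difference between tissues (0.2808 to 1.201). The ileal one ran from −0.4012 to 0.1504, above 0 without Control pig 5, PGR pig 3 or PGR pig 4. Jejunal minus ileal IFNγ over the IL-4 assay ran from −0.2245 to 0.2391, below 0 without Control pig 3, PGR pig 3 or PGR pig 4.

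The pigs were matched by litter, but nothing ties their numbers to litters. With a replicate block, Control and PGR pigs of the same number paired, an unadjusted p under 0.05 was found for 1 gene in jejunal and 2 in ileal mucosa. Only genes with a level in all 6 pairs could reach this, so blanks limited these counts. Ileal IL-10 was 0.7434 (exact p = 0.03125, the smallest 6 pairs allow, adjusted p = 0.25). Jejunal IL-10 was 0.7423 over 4 pairs (exact p = 0.25, adjusted p = 0.333), where 0.125 is the smallest possible. Without pairing the tissues of a pig, jejunal minus ileal was −0.6379 for IL-10 and 0.63 for the balance.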
